A study of Homo sapiens with 6 samples.

Results

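Drug, steroid and aldehyde metabolising enzymes were followed in JHH-4, a human line of hepatocellular carcinoma cells, with and without forced expression of hsa-miR-372-3p. Members were the named rows of a gene count table that belong to cytochrome P450 families CYP1 to CYP4, to the UDP-glucuronosyltransferases UGT1A, UGT2A and UGT2B, to the sulfotransferases SULT1 and SULT2, to the aldo-keto reductases AKR1, to the aldehyde dehydrogenases, to the epoxide hydrolases, and to the hydroxysteroid dehydrogenases HSD11B, HSD3B and HSD17B2. ALDH18A1, ALDH4A1 and ALDH1L2 were left out. This gave 45 of the 12396 genes tested. The miR372_3p group held 3 libraries of JHH-4 cells that overexpressed the microRNA from a plasmid carrying its primary transcript. The Control group held 3 libraries of JHH-4 cells given as wild type in the labels, which name no control construct. Both groups were grown in the same minimal essential medium with fetal serum, and the labels call the cells epithelial-like. The replicates are described as technical, so every p-value measures only the spread between these libraries and not between separate cultures.

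These enzymes act in sequence on drugs, steroids, bile pigments, retinoids and reactive aldehydes. Cytochrome P450 enzymes insert oxygen, epoxide hydrolases open the epoxides that result, and aldo-keto reductases and aldehyde dehydrogenases reduce or oxidise carbonyl groups. Glucuronosyltransferases and sulfotransferases then attach a polar group that lets the product leave the cell, and many of the genes are most active in liver and intestine. As background on the microRNA, its seed pairs with short complementary stretches in messenger RNAs, mostly in 3′ UTRs, which become less stable or are translated less.

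Across the 45 enzymes, more genes were lower than higher in miR372_3p cells. By edgeR's quasi-likelihood test with Benjamini-Hochberg adjustment over all genes, at a threshold of 0.05, 21 fell, 6 rose and 18 did not pass. Those are 46.7% and 13.3% of the members, beside 27.7% of all genes that fell and 26.8% that rose. The median log2 fold change, miR372_3p over Control, was −0.18 over the members and 0.0013 over all genes. A fall of at least 2-fold was called for 5 members (HSD17B2, AKR1B15, AKR1B10, SULT1C2 and UGT2A3), beside 3.2% of all genes. A rise of at least 2-fold was called for 2 members (ALDH1A1 and UGT1A9), beside 2.82% of all genes. All 3 miR372_3p libraries lay below all 3 Control libraries for 22 members, beside 31.4% of all genes, and above them for 6 members, beside 30.7% of all genes. In the other 17 members the groups overlapped.

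**Figure D1:**
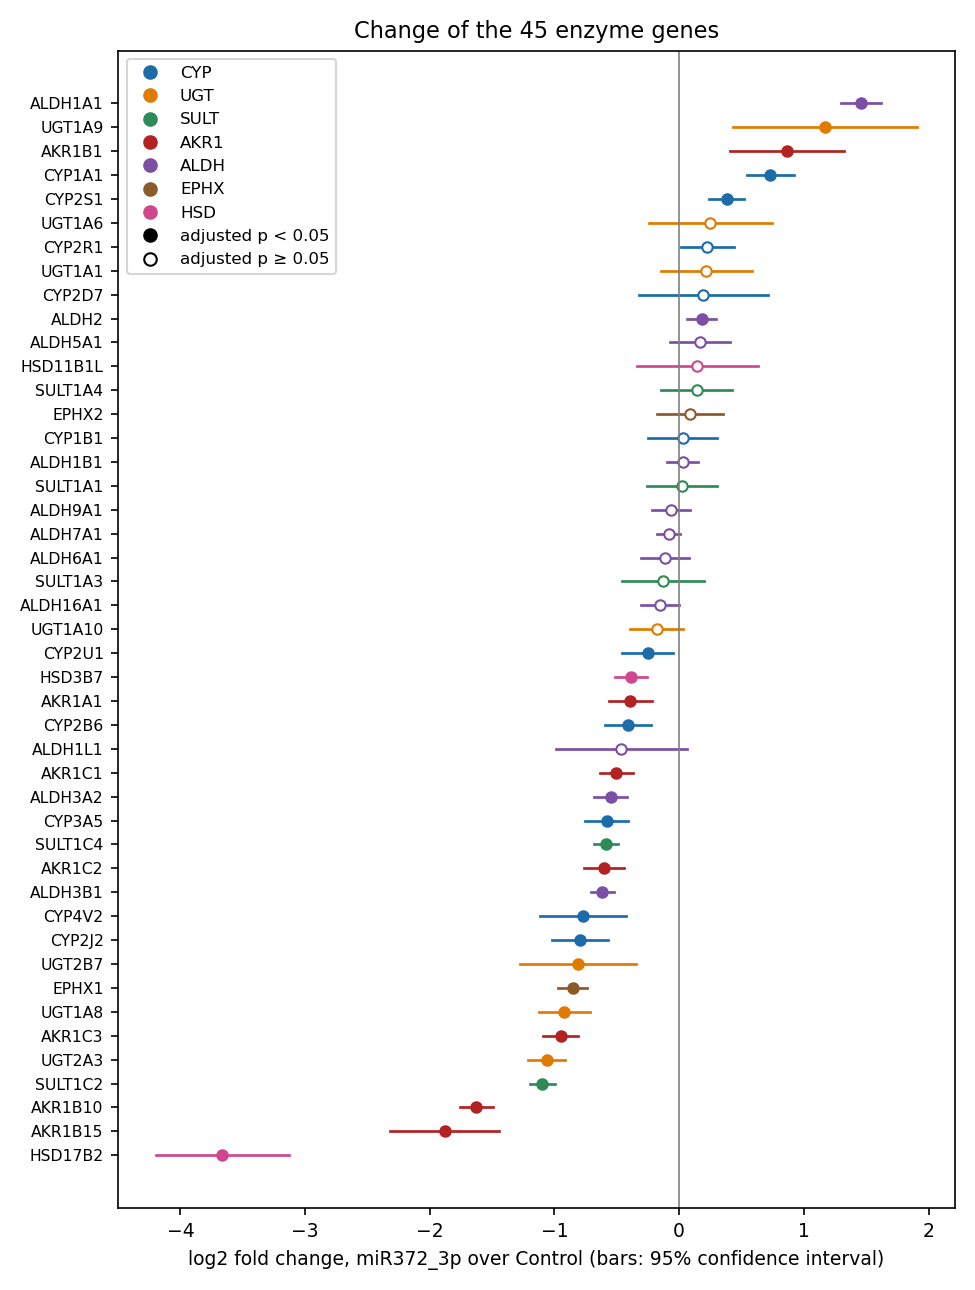
Log2 fold change of each of the 45 enzyme genes, miR372_3p over Control (x axis), with 95% confidence intervals from edgeR as bars; colours mark the 7 families and filled points an adjusted p under 0.05. The points run between −3.66 for HSD17B2 and 1.46 for ALDH1A1, and 21 filled points lie left of 0 against 6 on the right.

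The libraries held between 51072581 and 60070397 counts over named genes in miR372_3p and between 46851245 and 47890069 in Control. The members took 0.134 ± 0.00050% of counts in miR372_3p and 0.172 ± 0.0056% in Control (SD, n = 3 each). On principal components of log2 CPM, the first (79.6% of the variance) divided the groups, and on the second (7.71%) Control replicate 3 was set off, at 14.8 against −5.16 and −9.40 for the other controls; leaving it out ended the call of CYP2U1 alone among the members called. Of 18 hepatocyte markers 5 were measured. In miR372_3p, 3 rose (FGA, FGB and FGG) and 2 fell, SERPINA1 among them. Their summed level was 30.5 to 31.0 FPKM in miR372_3p and 25.4 to 27.6 FPKM in Control. ALB, AFP and the other 11 are not analysed here. The 3 bile duct markers with rows (KRT7, KRT19 and SOX9) rose, and their summed level was 1056 to 1142 FPKM in miR372_3p and 722 to 743 FPKM in Control. Most of each sum was KRT19, with means of 1058 FPKM in miR372_3p and 705 FPKM in Control. Of 7 stromal markers, 4 had rows. COL1A1 and PDGFRB rose, and LUM and COL1A2 did not pass. The summed level was 13.6 to 14.9 FPKM in miR372_3p and 2.87 to 3.61 FPKM in Control. Most of that difference was COL1A1, with means of 9.87 FPKM in miR372_3p and 0.666 FPKM in Control. Of 7 blood markers 2 had rows (CD14 and CD68) and neither passed the test, with sums of 61.1 to 63.1 FPKM in miR372_3p and 57.6 to 66.3 FPKM in Control. The 5 endothelial markers are not analysed here. The part of these markers in the enzyme changes was not tested, and in bulk RNA fewer cells of a type and less RNA per cell cannot be told apart.

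Levels per transcript length spanned a wide range. In Control, the deposited FPKM (fragments per kilobase, scaled to depth) averaged 93.4 ± 4.83 for EPHX1, 70.2 ± 0.37 for SULT1C4, 49.3 ± 6.56 for AKR1A1, 47.7 ± 1.26 for SULT1C2 and 38.2 ± 3.71 for AKR1C3 (SD, n = 3). The lowest was ALDH1L1 at 0.546 ± 0.222 FPKM. Of the 20 members at 10 FPKM or more in Control, 13 fell and 2 rose, with a median log2 fold change of −0.46. Among all 5817 genes at that level, 32.3% fell and 25.1% rose. Of the 25 members below 10 FPKM, 8 fell and 4 rose, and of all 6579 genes at that level 23.7% fell and 28.3% rose. By this cut the more abundant enzymes held 13 of the 21 falls. The cut uses Control alone, and the fold changes use the same libraries, so it can favour falls. AKR1C1, AKR1C2, ALDH3A2 and UGT1A8, which fell, had means of 8.80, 6.28, 7.69 and 7.16 FPKM in miR372_3p. Over the 45 members, which are not independent replicates, the log2 FPKM in Control and the log2 fold change had a Spearman rho of −0.37 and a Pearson r of −0.19; both are read from the same Control libraries, so this is a description only.

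The P450 family was divided. Of 10 members, 5 fell, 2 rose and 3 did not pass, beside 27.7% of all genes that fell and 26.8% that rose. The same shares stand beside the counts of the other families below. The summed level was 173 ± 1.99 CPM in miR372_3p and 172 ± 8.12 CPM in Control (SD, n = 3 each). CPM are counts scaled to 1e+06 per TMM-adjusted library. CYP2S1 held 81.5 CPM of that sum in miR372_3p and 62.6 CPM in Control, so near-equal sums do not mean unchanged genes. The 2 that rose were CYP2S1 and CYP1A1. CYP2S1 (ENSG00000167600, chromosome 19, 41193049 to 41207539, plus strand, GRCh38), a P450 found mainly outside the liver, had 82.0, 82.0 and 80.4 CPM in miR372_3p and 62.1, 68.5 and 57.3 CPM in Control. Its log2 fold change was 0.38 ± 0.063 (standard error; edgeR adjusted p = 0.00063). CYP1A1 (ENSG00000140465, chromosome 15, 74719542 to 74725610, minus strand), which oxidises polycyclic aromatic hydrocarbons, had 12.4, 12.8 and 12.1 CPM in miR372_3p and 7.67, 7.62 and 7.19 CPM in Control. In both genes every miR372_3p library lay above every Control library, and the CYP1A1 log2 fold change was 0.73 ± 0.084 (adjusted p = 6.5e-05). CYP1B1, which hydroxylates estradiol, had a log2 fold change of 0.03 with a 95% confidence interval of −0.25 to 0.30, and its groups overlapped; its row overlaps RMDN2 in the annotation.

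The P450 genes that fell include drug and fatty acid oxidases. CYP2B6, which metabolises bupropion and efavirenz, and CYP3A5, which shares many drug substrates with CYP3A4, had log2 fold changes of −0.41 ± 0.082 and −0.58 ± 0.077. CYP2J2, an epoxygenase of arachidonic acid, fell by 0.80 ± 0.099, and CYP4V2, a fatty acid omega-hydroxylase, fell by 0.77 ± 0.154. CYP2B6 averaged 25.5 ± 0.804 CPM in miR372_3p and 34.0 ± 4.12 CPM in Control, and CYP3A5 averaged 13.2 ± 0.385 CPM in miR372_3p and 19.7 ± 1.48 CPM in Control (SD, n = 3 each). CYP2U1, also an omega-hydroxylase, had −0.25 ± 0.090 (adjusted p = 0.0371). That call was lost under 6 of 14 other settings, 5 of which left out 1 library, with adjusted p up to 0.109 and log2 fold changes between −0.30 and −0.20. CYP2R1, a vitamin D hydroxylase, and CYP2D7, annotated as a polymorphic pseudogene, did not pass, at 0.22 ± 0.095 and 0.19 ± 0.231.

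Of the 7 UGT genes 3 fell, 1 rose and 3 did not pass, and together they held 85.1 ± 1.20 CPM in miR372_3p and 115 ± 2.43 CPM in Control (SD, n = 3 each). UGT2A3 (ENSG00000135220, chromosome 4, 68928463 to 68951791, minus strand), which glucuronidates bile acids, had 14.6, 15.9 and 15.5 CPM in miR372_3p and 32.4, 33.4 and 30.3 CPM in Control. The groups lay far apart, with a log2 fold change of −1.06 ± 0.066 (adjusted p = 9.8e-07). UGT2B7, which glucuronidates morphine, lies near it on chromosome 4 and had −0.81 ± 0.208 (adjusted p = 0.0082) on only 80 to 106 counts per library in miR372_3p and 123 to 148 in Control.

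The 5 UGT1A genes measured are spliced from alternative first exons of 1 locus on chromosome 2 to common last exons. In GENCODE 29 they share 738 coding bases between 233767034 and 233772559, 46.1 to 46.3% of each coding sequence. Over the whole coding sequence, that shared stretch included, UGT1A8, UGT1A9 and UGT1A10 are 95.7 to 96.8% identical in pairs. The first 60 coding bases of the 3 genes, 5′ to 3′, are shown because they lie in the part that has to tell their reads apart, with capitals at the 8 positions where they are not all alike:
UGT1A8: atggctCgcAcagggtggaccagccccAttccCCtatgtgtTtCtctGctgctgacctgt
UGT1A9: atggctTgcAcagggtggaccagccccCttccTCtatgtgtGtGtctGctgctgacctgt
UGT1A10: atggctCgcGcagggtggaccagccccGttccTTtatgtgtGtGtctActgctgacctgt

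The sources used here do not say how the authors' counting divided reads among these rows, so the level of each row is uncertain. The row UGT1A8 (ENSG00000242366), an enzyme mainly of intestine, held 18.9, 17.9 and 21.2 CPM in miR372_3p and 32.4, 40.2 and 37.5 CPM in Control. Its log2 fold change was −0.92 ± 0.091 (adjusted p = 2.2e-05). The row UGT1A9 (ENSG00000241119), which glucuronidates propofol, went the other way, at 10.7, 12.01 and 13.6 CPM in miR372_3p and 6.39, 2.23 and 7.54 CPM in Control. Its log2 fold change of 1.17 ± 0.329 (adjusted p = 0.0129) rests on a Control spread of 104 to 366 counts, and without miR372_3p replicate 3 the adjusted p was 0.0502. Without Control replicate 2, the lowest, the log2 fold change was 0.80. In Control replicate 2, where the UGT1A9 row was lowest, the UGT1A6 and UGT1A8 rows were highest among the controls, with 393 counts for UGT1A6 against 209 and 238. UGT1A10, UGT1A6 and UGT1A1, the last of which glucuronidates bilirubin, did not pass, at −0.18 ± 0.095, 0.25 ± 0.219 and 0.22 ± 0.164. Summed into 1 unit, a step added after the rows had been seen, the 5 rows held 68.0 ± 2.00 CPM in miR372_3p and 80.5 ± 2.45 CPM in Control (SD, n = 3 each). The sum of these 5 rows, which are not all genes of the locus, fell by 0.24 ± 0.046 on the log2 scale, a 1.18-fold difference (adjusted p = 0.0015).

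**Figure D2:**
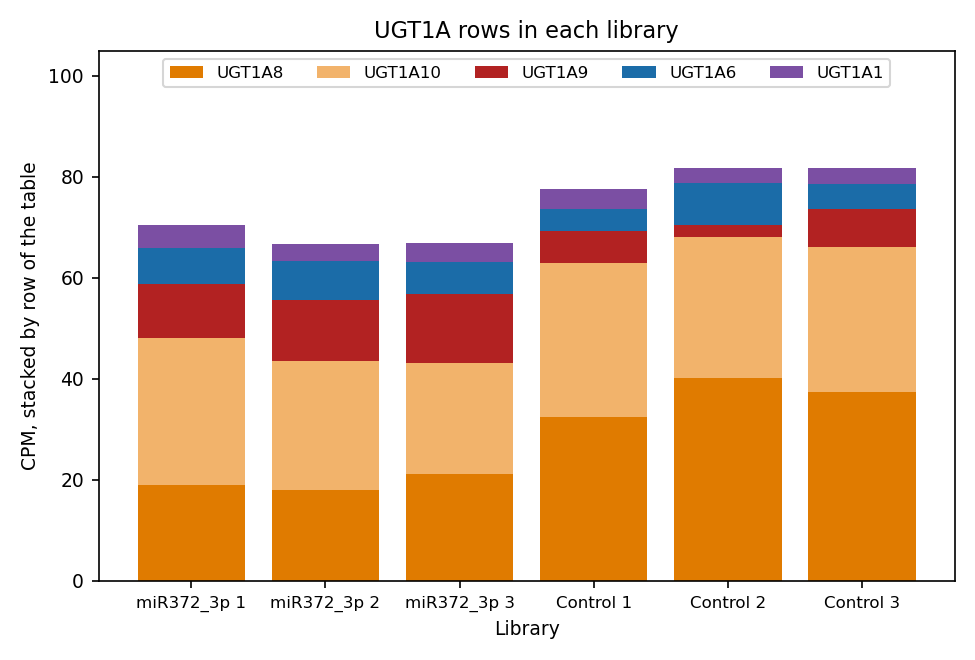
CPM (y axis) of the 5 UGT1A rows, stacked, in each of the 6 libraries (x axis). The stacks of the 3 miR372_3p libraries are all lower than those of the 3 Control libraries, while the UGT1A9 segment is taller in miR372_3p (10.7 to 13.6 CPM) than in Control (2.23 to 7.54 CPM).

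Sulfotransferases of the SULT1C subfamily were among the most abundant members and both fell. SULT1C2 (ENSG00000198203, chromosome 2, 108288639 to 108309915, plus strand), a phenol sulfotransferase best known from fetal tissue, had 59.6, 65.0 and 59.8 CPM in miR372_3p and 130, 131 and 133 CPM in Control. No library of either group came near the other, and the log2 fold change was −1.10 ± 0.046 (adjusted p = 8.2e-08). Its neighbour SULT1C4 (ENSG00000198075, 108377911 to 108388057, plus strand) had 82.2, 85.9 and 88.5 CPM in miR372_3p and 127, 133 and 125 CPM in Control, a log2 fold change of −0.59 ± 0.043 (adjusted p = 3.2e-06). The 3 SULT1A rows did not pass. SULT1A1, which sulfates phenols and estrogens, had 0.02 ± 0.126. SULT1A3 and SULT1A4, 2 copies of the dopamine sulfotransferase gene whose coding sequences are 100% identical, had −0.13 ± 0.147 and 0.14 ± 0.127, and their sum had 0.01 ± 0.077 (adjusted p = 0.888). The 5 sulfotransferases together held 168 ± 4.71 CPM in miR372_3p and 280 ± 3.08 CPM in Control (SD, n = 3 each).

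Every aldo-keto reductase row passed the test, with 6 of 7 lower and AKR1B1 higher, beside 27.7% of all genes that fell and 26.8% that rose. The rows are not all separate measures, since AKR1B10 with AKR1B15 and AKR1C1 with AKR1C2 are near-identical pairs. Each pair also fell when summed. The summed level of the 7 rows was 215 ± 0.623 CPM in miR372_3p and 352 ± 30.1 CPM in Control (SD, n = 3 each). AKR1B10 (ENSG00000198074, chromosome 7, 134527592 to 134541408, plus strand), which reduces retinal and other carbonyls and is often raised in hepatocellular carcinoma, had 18.9, 19.3 and 20.7 CPM in miR372_3p and 62.4, 56.4 and 63.0 CPM in Control. The lowest control was above every miR372_3p library, and the fall was 3.09-fold, with a log2 fold change of −1.63 ± 0.060 (adjusted p = 4.3e-08). AKR1B15 (ENSG00000227471), which lies beside it at 134549136 to 134579875, had 0.617, 0.574 and 0.625 CPM in miR372_3p and 2.32, 2.17 and 2.22 CPM in Control, a log2 fold change of −1.88 ± 0.194 (adjusted p = 3.1e-05). Only 29 to 37 reads per miR372_3p library stood behind the AKR1B15 value, and its coding sequence is 93.5% identical to that of AKR1B10, so its value is uncertain. The 2 rows summed had −1.64 ± 0.058. AKR1B1 (ENSG00000085662, 134442350 to 134459284, minus strand), the aldose reductase that makes sorbitol from glucose, lies in the same cluster and had 3.97, 3.70 and 3.98 CPM in miR372_3p and 1.51, 2.30 and 2.57 CPM in Control. Its groups did not overlap, and the log2 fold change was 0.87 ± 0.204 (adjusted p = 0.0052). That value rests on only 71 to 125 counts per Control library, and it was 0.67 to 1.03 with 1 library left out.

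The AKR1C genes, which reduce ketosteroids such as progesterone and androstenedione, lie within 144 kb of chromosome 10. The nearest relatives AKR1C1 (ENSG00000187134, 4963253 to 4983283, plus strand) and AKR1C2 (ENSG00000151632, 4987400 to 5018031, minus strand) are 98.0% identical in coding sequence, with 19 differences over 972 bases and no difference in the last 189. The first 60 coding bases, 5′ to 3′, show how little separates their reads, with capitals at the single position that is not alike:
AKR1C1: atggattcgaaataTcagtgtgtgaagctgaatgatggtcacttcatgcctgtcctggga
AKR1C2: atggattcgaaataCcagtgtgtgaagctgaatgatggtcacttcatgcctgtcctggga

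Because of this likeness the split between the 2 rows is uncertain, and their sum is the firmer value. AKR1C1 had 66.7, 64.5 and 64.0 CPM in miR372_3p and 89.5, 86.6 and 101 CPM in Control, a log2 fold change of −0.50 ± 0.060 (adjusted p = 7.6e-05). AKR1C2 had −0.60 ± 0.072, and the sum of both fell by 0.53 ± 0.058. AKR1C3, which makes testosterone from androstenedione, had −0.95 ± 0.063 (adjusted p = 1.5e-06), with 40.2 ± 0.906 CPM in miR372_3p and 77.7 ± 6.66 CPM in Control (SD, n = 3 each). AKR1A1, the general aldehyde reductase, had −0.39 ± 0.077. Control replicate 3 was the highest control for AKR1A1, AKR1C1, AKR1C2 and AKR1C3, but all 3 controls lay above the miR372_3p libraries for each.

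**Figure D3:**
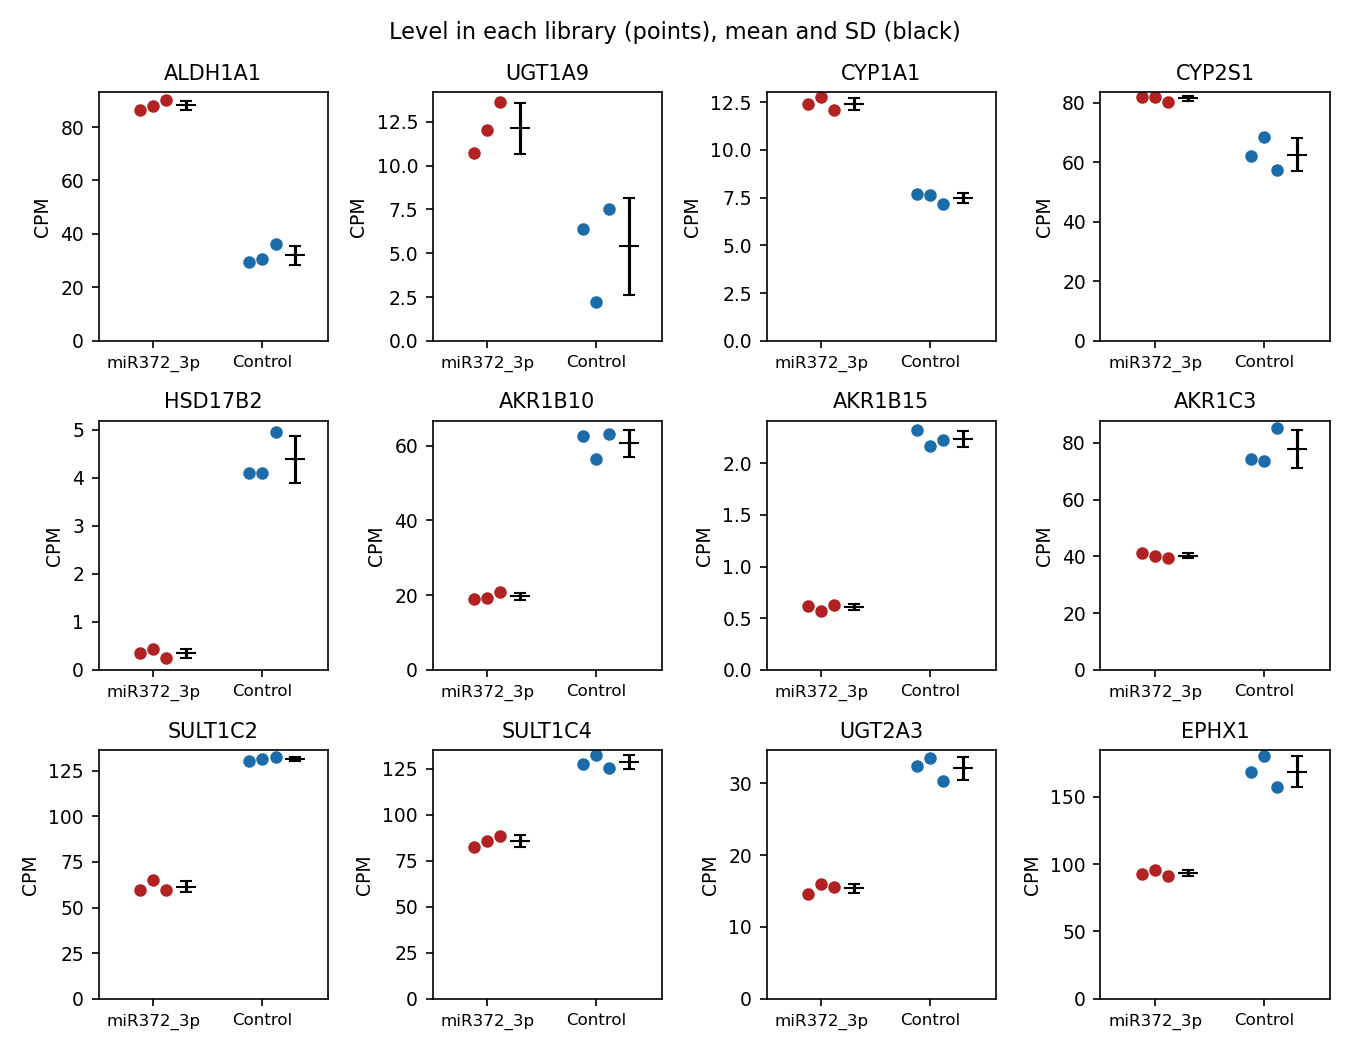
CPM (y axes, from 0) of 12 enzyme genes in the 3 miR372_3p libraries (left, red) and the 3 Control libraries (right, blue), with mean and SD in black. The groups do not overlap in any panel; the first row shows genes higher in miR372_3p, and the Control points of UGT1A9 are the most scattered, at 2.23 to 7.54 CPM.

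Of 11 aldehyde dehydrogenases 2 fell, 2 rose and 7 did not pass, and their summed level was 556 ± 4.45 CPM in miR372_3p and 561 ± 26.5 CPM in Control (SD, n = 3 each). Within these near-equal sums, ALDH1A1 held 88.1 CPM in miR372_3p and 32.1 CPM in Control. ALDH1A1 (ENSG00000165092, chromosome 9, 72900662 to 73080442, minus strand), which makes retinoic acid from retinal, had the largest rise of all members. It had 86.6, 87.8 and 90.0 CPM in miR372_3p and 29.4, 30.7 and 36.1 CPM in Control. Every miR372_3p library lay far above every control, with a 2.75-fold difference and a log2 fold change of 1.46 ± 0.072 (adjusted p = 2.5e-07). Its deposited level per length was 37.3 ± 0.710 FPKM in miR372_3p and 13.5 ± 1.64 FPKM in Control (SD, n = 3 each). ALDH3B1, which oxidises medium- and long-chain aldehydes, and ALDH3A2, the fatty aldehyde dehydrogenase, fell by 0.62 ± 0.042 and 0.55 ± 0.060 on the log2 scale.

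ALDH2, the mitochondrial enzyme that clears acetaldehyde, had 46.7 ± 1.73 CPM in miR372_3p and 41.2 ± 2.04 CPM in Control (SD, n = 3 each). Its log2 fold change was 0.18 ± 0.052 (adjusted p = 0.0143), and without miR372_3p replicate 3 the adjusted p was 0.0665. The deposited FPKM of ALDH2 differed more, at 5.79, 6.97 and 9.22 in miR372_3p and 5.73, 4.62 and 4.47 in Control. The log2 ratio of their means was 0.57. ALDH7A1 (ENSG00000164904, chromosome 5, 126531200 to 126595418, minus strand), an enzyme of lysine breakdown and the family's highest member by count, had 94.8, 93.3 and 94.9 CPM in miR372_3p and 99.4, 96.6 and 104 CPM in Control. The groups did not overlap, but the log2 fold change of −0.09 ± 0.042 did not pass (adjusted p = 0.111). The deposited FPKM of ALDH7A1 gave another picture, at 33.2, 19.2 and 19.7 in miR372_3p and 19.9, 18.0 and 19.8 in Control, so that miR372_3p replicate 1 stood apart in FPKM but not in counts. ALDH1B1, ALDH5A1, ALDH6A1, ALDH9A1, ALDH16A1 and ALDH1L1 did not pass either, with log2 fold changes between −0.46 for ALDH1L1 and 0.17 for ALDH5A1. ALDH16A1, ALDH5A1 and ALDH6A1 overlap other tested genes (PIH1D1, GPLD1 and BBOF1), and without strand information reads in the overlap cannot be assigned.

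EPHX1 (ENSG00000143819, chromosome 1, 225810092 to 225845563, plus strand), the microsomal epoxide hydrolase and the most abundant member per length, had 92.8, 95.8 and 91.1 CPM in miR372_3p and 168, 180 and 157 CPM in Control. The groups were well apart, with a log2 fold change of −0.85 ± 0.052 (adjusted p = 8.6e-07). It overlaps TMEM63A in the annotation. EPHX2, the soluble hydrolase of fatty acid epoxides, had 6.37 ± 0.631 CPM in miR372_3p and 5.99 ± 0.287 CPM in Control (SD, n = 3 each), and its log2 fold change of 0.09 had a 95% confidence interval of −0.18 to 0.36.

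Of the hydroxysteroid dehydrogenases, HSD17B2 had the largest fall of all members. It is the only HSD17B gene among the members, entered by name. Other HSD17B genes were read in a list of non-members, with log2 fold changes between −1.24 for HSD17B8 and 0.18 for HSD17B10. HSD17B2 (ENSG00000086696, chromosome 16, 82035004 to 82098534, plus strand) inactivates estradiol and testosterone by oxidation. It was counted 21, 22 and 14 times in the miR372_3p libraries and 192, 191 and 240 times in the Control libraries, or 0.345 ± 0.0928 CPM and 4.38 ± 0.490 CPM (SD, n = 3 each). No miR372_3p library came near the lowest control. The log2 fold change was −3.66 ± 0.237, a 12.7-fold difference with a 95% confidence interval of −4.19 to −3.13 on the log2 scale (adjusted p = 1.3e-06). HSD3B7 (ENSG00000099377, chromosome 16, 30985207 to 30989152, plus strand), which acts early in bile acid synthesis, had 47.1, 44.7 and 40.9 CPM in miR372_3p and 57.1, 57.5 and 59.2 CPM in Control. It fell by 0.39 ± 0.057 (adjusted p = 0.0003). HSD11B1L, whose row overlaps RPL36 and C19orf70, had 0.15 ± 0.216 and overlapping groups.

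Matches to the microRNA seed were searched in the 3′ UTRs of the members, taking for each gene the GENCODE 29 transcript with the longest 3′ UTR. The mature microRNA (RefSeq, GRCh38.p14, chromosome 19, 53787931 to 53787953, plus strand) is shown with its seed, bases 2 to 8, in capitals. Beside it stand the matches of 2 members, each with the 7 bases AGCACTT in capitals, for the member with the largest fall and for 1 that fell less:
hsa-miR-372-3p: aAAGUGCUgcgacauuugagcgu
HSD17B2, chr16:82095464-82095470: gtgaacaaccaAGCACTTtgcaggag
CYP2U1, chr4:107952874-107952880: aaatattactaAGCACTTtccgtata

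Matches were held by members of both directions of change. AGCACTT followed by A, the 8-base match, was in 0 of 45 members, beside 4.05% of the 12192 genes searched. AGCACTT was the best match in 9 members, and a match of 7 or 8 bases to the seed was thus in 20% of the members, beside 25.5% of all genes. GCACTTA was the best match in 3 members (SULT1A3, SULT1A4 and UGT1A1), 6.67% of them, beside 3.63% of all genes. SULT1A3 and SULT1A4 are copies of the same gene, and the UGT1A1 match is absent from the 3′ UTR of its principal transcript. The shares of members rest on few genes, and no difference from all genes was tested. Of those 9 with AGCACTT, 5 fell (HSD17B2, ALDH3B1, ALDH3A2, AKR1A1 and CYP2U1), 1 rose (ALDH2), and ALDH5A1, ALDH7A1 and ALDH9A1 did not pass. Of the 31 members with no match down to the 6 bases GCACTT, 15 fell, 5 rose and 11 did not pass. Calls were not counted by match over all genes, so these counts have no background of their own. Over all genes, whatever the match, 27.7% fell and 26.8% rose. Of the 9 members with AGCACTT, 6 hold it in a principal transcript. The HSD17B2 matches lie in a transcript with a 3′ UTR of 7358 nt and not in its principal transcript, whose 3′ UTR has 98 nt, and the matches of AKR1A1 and ALDH5A1 are likewise absent from their principal 3′ UTRs of 93 and 591 nt. AKR1B10, AKR1B15, SULT1C2 and UGT2A3, the other members that fell at least 2-fold, hold no match. A match is a string of letters in the annotation, and pairing was not measured.

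Genes that work beside the enzymes were read from the same fit, in 6 lists, 2 of which hold ABCC2. Of 28 redox partners and transcriptional regulators measured, 12 fell and 7 rose, with a median log2 fold change of −0.01. FOXA2, a pioneer factor of liver, fell by 0.62 ± 0.063 on the log2 scale. AHRR, the repressor of the aryl hydrocarbon receptor, rose by 0.63 ± 0.168 on the log2 scale. AHR, the receptor itself, had −0.23 ± 0.052 (adjusted p = 0.0041), and TIPARP, a target of it, had 0.018 ± 0.052 and did not pass. Of 23 other conjugation enzymes, 10 fell and 7 rose, among them MGST1, a microsomal glutathione transferase, at −0.74 ± 0.040 and STS, which removes sulfate from steroids, at −0.77 ± 0.146. GSTM2, a glutathione transferase with near relatives in its cluster, had 0.98 ± 0.340, a call lost when any of 5 of the 6 libraries was left out.

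Of 24 other oxidoreductases and esterases, 9 fell and 6 rose. Among those that rose, DHRS2, a short-chain dehydrogenase, rose by 1.57 ± 0.116 and DHRS3, a retinal reductase, by 1.13 ± 0.105. Of 22 other enzymes of steroids, bile acids and vitamins, 8 fell and 1 rose (HSD17B10). HSD17B8, a further oxidative dehydrogenase of estradiol, had −1.24 ± 0.131, and CYP27A1 and AMACR, both of bile acid synthesis, had −1.01 ± 0.050 and −0.93 ± 0.081. Of 16 drug transporters, 7 fell and 3 rose, with SLCO4C1 at −1.64 ± 0.091, SLC22A3, an organic cation transporter, at −1.22 ± 0.051, and ABCG2, a drug efflux pump, at 0.69 ± 0.108. Of 16 other targets of NRF2, the factor that also induces AKR1B10 and the AKR1C genes, 13 fell and 1 rose (TXNRD1), with a median of −0.35. HMOX1, which degrades heme, had −0.77 ± 0.039, ABCC2, a pump for conjugates, −0.61 ± 0.040, and FTL, a ferritin chain, −0.58 ± 0.050. NFE2L2, which encodes NRF2, had −0.28 ± 0.051; it, TXNRD1, HSD17B10, AHR and TIPARP were named after their values were seen. No list was tested as a set, and the counts stand beside the 27.7% of all genes that fell and the 26.8% that rose. Of the 16 NRF2 targets, 13 had 10 FPKM or more in Control, and 11 of these fell. Among all genes at that level, which is set by Control alone, 32.3% fell. The lists were chosen with earlier results known, and the part of NRF2 in the enzyme changes was not tested.

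**Figure D4:**
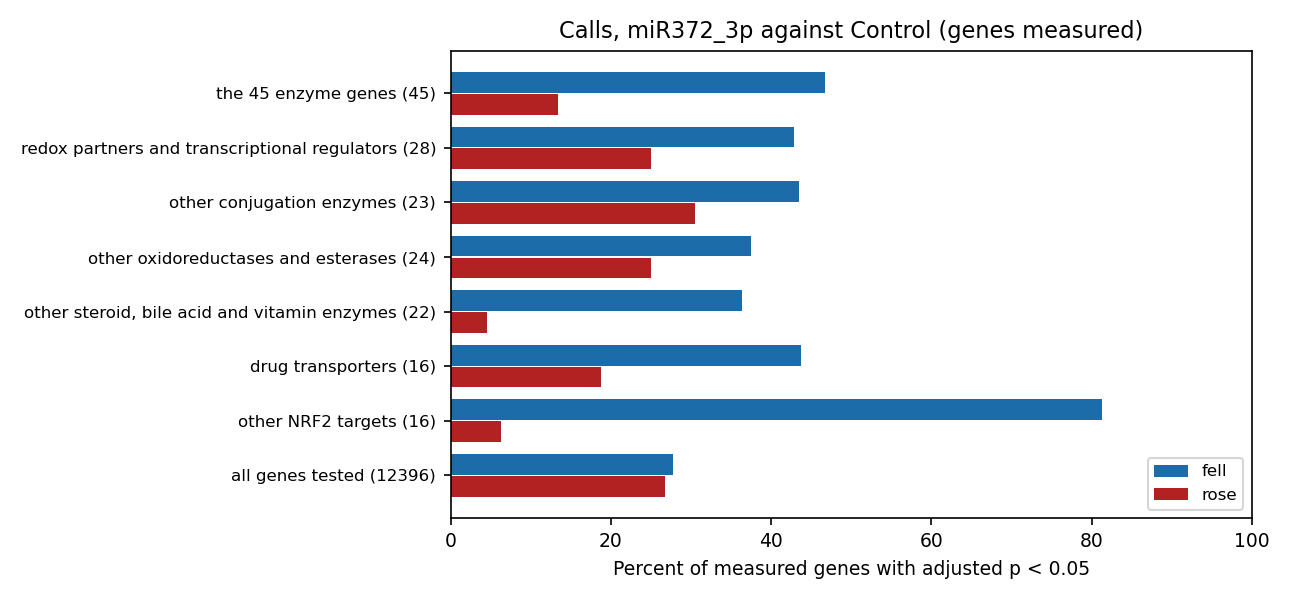
Percent of measured genes called lower (blue, upper bar) or higher (red, lower bar) in miR372_3p than in Control, for the 45 enzyme genes, 6 lists of related genes and all 12396 genes tested, with the number measured in brackets. Among the other NRF2 targets 81.3% fell, and among the 45 enzyme genes 46.7% fell, beside 27.7% of all genes. At 10 FPKM or more in Control, where 13 of the 16 NRF2 targets lie, 32.3% of all genes fell.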

How the data were processed

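The 6 libraries were prepared from total RNA with the NEBNext Ultra kit, which does not mark strand, per the labels' protocols. Per the file headers, the authors deposited counts of reads and FPKM per gene and library, beside a log2 fold change and a p-value. In the submitters' processing notes stand GRCh38, HISAT2 2.0.4, StringTie 2.2.1 and DESeq2 1.38.3, while the sources used here do not say how reads were counted. As deposited, the counts are whole and not normalized; the deposited FPKM, scaled by the authors to length and depth, serve only to describe levels. The log2 fold changes in the authors' deposited table differ from those printed here by at most 0.011 for any member, and the deposited p-values were not used.

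Of 14006 rows, 12396 carry a gene ID and were tested; 1610 unnamed loci, with 2.64 to 3.63% of counts, stayed out of library sizes. No row has under 208 counts in all, so weaker genes are not analysed here. Samples were grouped by title. The test was the quasi-likelihood F-test of edgeR 4.0.16 (R 4.3.3) with TMM factors and group as the only term, after filterByExpr, which removed 0 genes. P-values were adjusted by Benjamini-Hochberg over the 12396 genes, with 0.05 as the threshold; the script was tested on simulated data. The common biological coefficient of variation was 0.0796. Within groups, the chi-square of each pair of libraries was 6.86 to 38.6 times its degrees of freedom, so none is another deposited again. CPM use the TMM-scaled library size, and ± after a log2 fold change is its standard error. Positions, coding sequences and 3′ UTRs come from GENCODE 29 (GRCh38), the mature microRNA from RefSeq; principal transcripts are those of the annotation's APPRIS tag. All 45 members matched, and 44 are protein-coding there.

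The members and lists were chosen with earlier results of these data known. Members were named with values in every library where they changed at least 2-fold or had the highest CPM of their family, and from each list up to 3 called genes with the largest change; some genes and sites so named are not reported here. Alternatives were RLE and upper quartile factors, DESeq2 1.42.0, limma 3.58.1 voom, a minimum mean of 1 CPM, unnamed loci kept, a replicate block, each library left out, and, added after the data were seen, near-identical rows summed. Transcripts of the microRNA itself were not analysed here.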

Additional observations from a re-analysis of the deposited data

How the results depend on the processing

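Of the 27 called members, 24 kept direction and call under all 14 alternatives that could be run for them; the exceptions were CYP2U1, ALDH2 and UGT1A9. CYP2U1 lost its call with the replicate block and in every leave-out but that of miR372_3p replicate 1, and ALDH2 and UGT1A9 lost it without miR372_3p replicate 3. RLE and upper quartile factors, DESeq2, limma voom, the minimum of 1 CPM and the unnamed loci changed no call of a member. Leaving out 1 library at a time gave 20 to 22 members that fell, 4 to 7 that rose and 1 to 3 that rose at least 2-fold. New calls appeared for UGT1A10 without miR372_3p replicate 1, ALDH1L1 without Control replicate 1, ALDH16A1 and UGT1A6 without Control replicate 2, and CYP2R1 without Control replicate 3. With near-identical rows summed, 19 units fell, 5 rose and 1 rose at least 2-fold. Rises were fewer because summing leaves UGT1A9 no row of its own. Falls were fewer because UGT1A8, AKR1B10, AKR1B15, AKR1C1 and AKR1C2 were joined into sums, which also fell. The 34 members left as single rows kept direction and call. Members that had not passed changed sign between leave-outs, with log2 fold changes of −0.11 to 0.013 for ALDH9A1, −0.0801 to 0.0855 for SULT1A1, −0.012 to 0.056 for ALDH1B1, −0.016 to 0.088 for CYP1B1 and −0.00782 to 0.30 for HSD11B1L. Of the enzymes of steroids, bile acids and vitamins, 2 rose with the minimum of 1 CPM, 2 with the replicate block and 1 to 3 in leave-outs; the cause was not tested. Same-numbered libraries showed no common deviation (r of −0.126, 0.0165 and 0.100), beside −0.155 to 0.167 for libraries of unlike number. With 3 libraries per group, these values cannot show whether samples were handled in pairs. With the block 20 members fell and 6 rose. Among members that fell, depth limits HSD17B2, AKR1B15 and UGT2B7 most, at 14 to 106 counts per miR372_3p library. Among those that rose, AKR1B1 had 71 to 125 counts per Control library. Of those not called, ALDH1L1 had 51 to 71 and CYP2D7 66 to 103 counts per miR372_3p library.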
